A study of Mus musculus with 10 samples.

Results

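The TNF superfamily ligands and receptors were described across thymic tuft cells, small intestinal (SI) tuft cells and other SI epithelium. Members were all protein-coding mouse genes whose symbol is Tnfsf or Tnfrsf followed by a number and at most 1 letter, with Tnfrsf19 not included. This rule used symbols only and gave 30 genes of the 43432 identifiers in the count files, 11 ligands (Tnfsf) and 19 receptors (Tnfrsf). Family genes with other names, such as Tnf, Cd40 and Fas, and the downstream adaptors were followed as separate lists. RNA-seq libraries came from naive male mice of 12 weeks, strain C57BL6.Il25(Flare25/Flare25), so every group carried the Flare25 reporter allele of Il25 on both chromosomes. Thymic tuft cells (n = 4 libraries) and SI tuft cells (n = 3) were sorted as DAPI-, CD45-, EPCAM+ and Flare25+, and SI epithelium (n = 3) by the same markers but Flare25-. Each library was 1 mouse, so the libraries of a group are separate animals. Thymic libraries were made from far fewer cells, 1350 to 1900, against 35000 to 36000 for SI tuft cells and 52000 to 57000 for SI epithelium. Thymus was dissociated with enzymes and the intestine with DTT and EDTA, so organ, dissociation and cell number cannot be told apart in the thymic comparisons.

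The TNF superfamily couples trimeric ligands, most of them anchored in the membrane of the sending cell, to receptors that cluster on the receiving cell. Some receptors carry a death domain and can recruit caspases, others recruit TRAF adaptors and activate NF-kB, and a few are decoys that bind ligand without signalling. In the thymus, RANK (Tnfrsf11a), CD40 and the lymphotoxin beta receptor drive the growth and maturation of medullary epithelium, and in the gut RANK is known for the differentiation of M cells.

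The total per library ranged between 38659882 and 73574745 gene counts. Levels below are CPM, a gene's count relative to the total of its library after TMM scaling, where a floor of 3 counts stands for 0.0433 to 0.0816 CPM, and levels of different genes are compared only per kilobase (kb) of exon. The tuft markers, 10 genes including Pou2f3 and Trpm5, summed to 5205 to 6057 CPM in thymic tuft cells, 23414 to 32173 CPM in SI tuft cells and 202 to 406 CPM in SI epithelium, and all 10 were called higher in either tuft group than in SI epithelium. The 11 markers of other intestinal epithelium summed to 352 to 981, 9873 to 12515 and 65980 to 71510 CPM in these groups in turn. Of these 11, 1 was called higher and 6 lower for SI tuft cells over SI epithelium. Most of the epithelial sum was Muc2 and Zg16. Fabp1 had 5250 to 6895 CPM in SI tuft and 992 to 1425 CPM in epithelial libraries. Every SI tuft library also lay above every epithelial one for Alpi, Sis and Lgr5. The part of these genes in the differences below was not tested. Libraries of SI epithelium 1, 2 and 3 held counts in the proportions of thymic libraries 3, 2 and 1, amounting to 0.481%, 0.523% and 0.481% of that thymic library's counts over 282 genes. In turn, thymic libraries 3, 2 and 1 held 0.918%, 0.959% and 0.860% of the counts of SI epithelium 1, 2 and 3 over 11 genes. Thymic library 4 had no such partner, with 0.0142%, 0% and 0.0242% of its counts in SI epithelium 1, 2 and 3. The 11 genes were picked to be low in thymic library 4, so its share of epithelial counts was not measured. Counts of called members are also given with the partner shares subtracted and with library 4 as the only thymic library. The members whose call or value moved are given too. Mitochondrial genes held 4.38% to 5.97% of the counts in thymic tuft libraries, 24.1% to 33.5% in SI tuft and 18.6% to 23.7% in SI epithelium libraries, and their part in the differences below was not tested.

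Most members were more abundant in thymic tuft cells than in either SI group. A gene was called when its adjusted p in edgeR's quasi-likelihood test with Benjamini-Hochberg adjustment over all 19281 tested genes was below 0.05. The filter on low counts kept 29 members and left out Tnfsf14. Of these 29, 16 were called higher and 0 lower in thymic tuft cells than in SI tuft cells, where 28.5% of all tested genes were called higher and 23.1% lower. At an unadjusted p below 0.05 the counts were 18 higher and 1 lower, and the DESeq2 Wald test called 21 higher and 0 lower. Against SI epithelium, 19 were higher and 1 lower in thymic tuft cells, with 28.6% of all genes higher and 22.3% lower. In SI tuft cells against SI epithelium, 1 was higher (Tnfrsf8) and 4 were lower (Tnfrsf11b, Tnfrsf12a, Tnfrsf21 and Tnfsf4), with 10.9% of all genes higher and 11.4% lower. In either direction, the calls made up 51.6% of all genes for thymic over SI tuft cells, 50.9% for thymic tuft cells over SI epithelium and 22.3% for SI tuft cells over SI epithelium. The 5 members called in the last comparison were 17.2% of 29, a share near that of all genes, and nothing about the family is read from their number. The 3 comparisons share groups, and the 16 members called against SI tuft cells were also among the 19 called against SI epithelium.

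The median log2 fold change of the 29 members was 2.54 for thymic tuft over SI tuft cells, against 0.12 over all tested genes, and stayed 2.54 with 4 members that had 0 counts in SI tuft cells set to the bound their counts allow. For thymic tuft cells over SI epithelium it was 2.58, against 0.154 over all genes. For SI tuft cells over SI epithelium the 28 members with a count in either group had a median of -0.04, and 0.02 with 3 members at their bound, so its sign depended on that choice. Members that passed the filter only through a group where they were high had to differ, so these counts and medians describe the list and do not test it. With thymic library 4 as the only thymic library, which was chosen after seeing the data, 15 members were higher and 3 lower than in SI tuft cells, and 13 higher and 3 lower than in SI epithelium. In that fit 25.2% of 20802 genes were higher and 24.6% lower than in SI tuft cells, 25% and 23.5% than in SI epithelium, and the all-gene median log2 fold changes were -0.163 and -0.158. Of the 16 members called higher over SI tuft cells 12 stayed called, 3 did not (Tnfrsf13b, Tnfrsf17 and Tnfsf12) and Tnfsf11 was not tested, while Tnfrsf10b, Tnfrsf25 and Tnfsf14 were added. Of the 19 called higher over SI epithelium 12 stayed called, 6 did not (Tnfrsf11a, Tnfrsf11b, Tnfrsf17, Tnfsf12, Tnfsf13 and Tnfsf15) and Tnfsf11 was not tested, while Tnfsf14 was added. The lone library is assumed to vary as the other groups do.

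**Figure D1:**
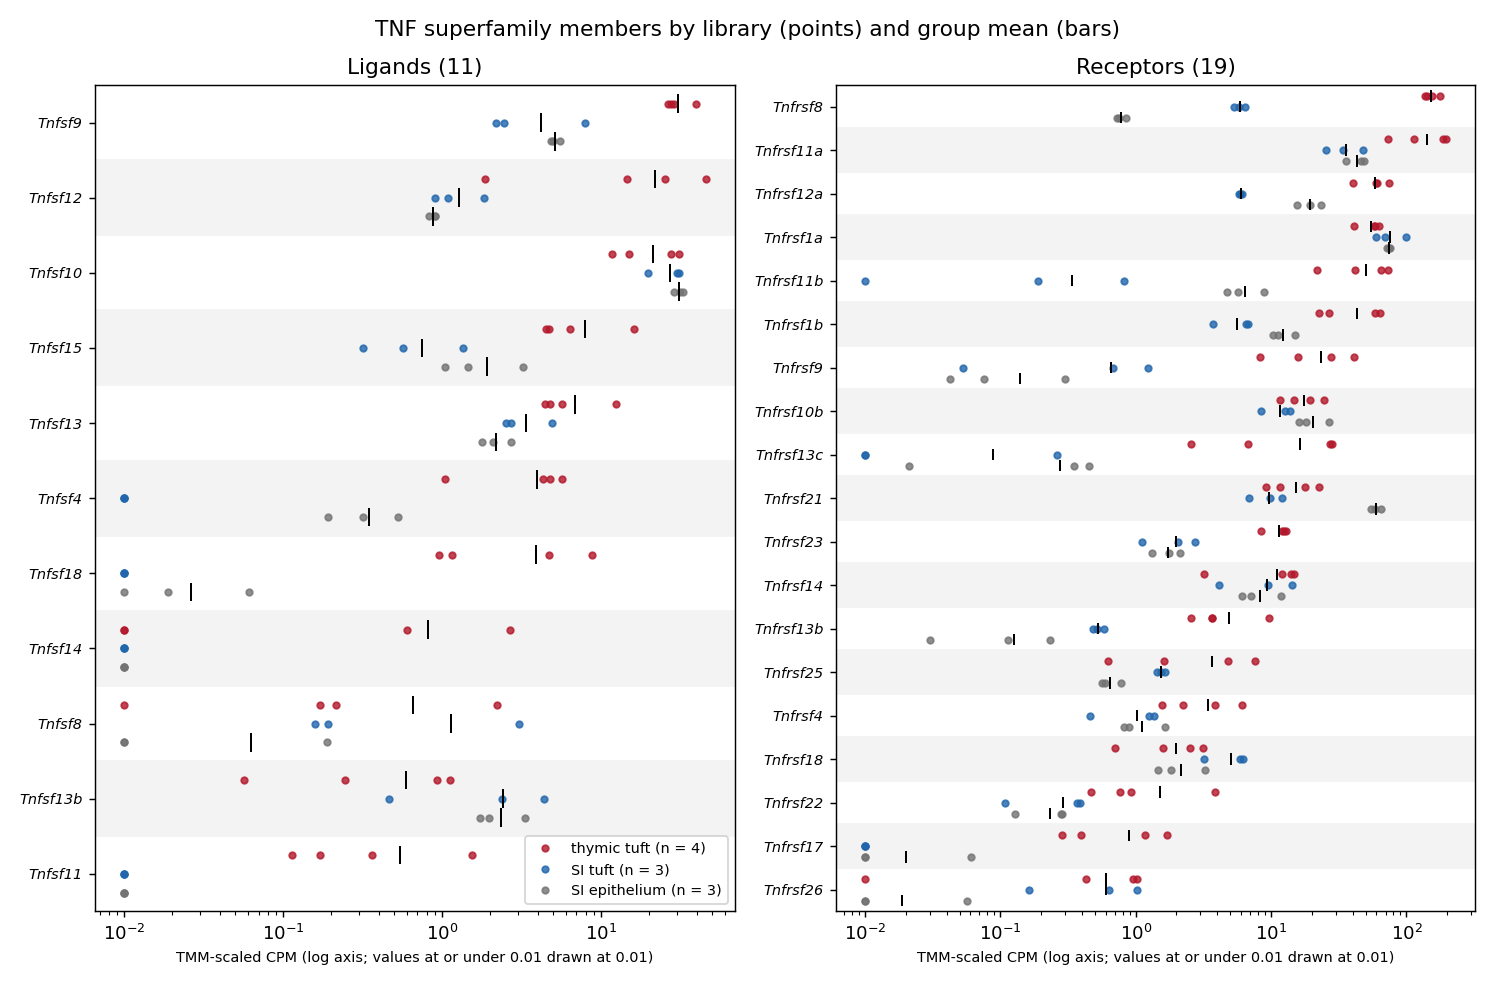
TMM-scaled CPM of the 11 ligands and 19 receptors in each library (points, log axis) with group means (bars), ordered by the thymic tuft mean. Tnfrsf8 sits between 138 and 177 CPM in the 4 thymic tuft libraries and below 7 CPM in all SI libraries, while the groups overlap for Tnfsf10. Values at or under 0.01 CPM are drawn at 0.01 CPM.

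Tnfrsf8, which encodes CD30, a receptor known from activated lymphocytes, was the most abundant member per kb in thymic tuft cells and separated all 3 groups. The gene lies at chr4:145267137-145315164 on the minus strand (GRCm38). It had 177, 155, 138 and 141 CPM in thymic tuft libraries 1 to 4, against 5.34, 6.45 and 5.75 CPM in SI tuft libraries 2, 3 and 4 and 0.753, 0.722 and 0.848 CPM in SI epithelium 1, 2 and 3. Every thymic library was above every SI tuft library, and every SI tuft library above every epithelial one. The log2 fold change was 4.71 ± 0.20 (SE) over SI tuft cells (edgeR adjusted p = 7.14e-09) and 7.62 ± 0.23 over SI epithelium (edgeR adjusted p = 1.98e-09). Tnfrsf8 was also the member called higher for SI tuft cells over SI epithelium, with a log2 fold change of 2.91 ± 0.19 (edgeR adjusted p = 5.65e-07). Its ligand gene Tnfsf8 had 0, 0.169, 0.216 and 2.22 CPM in thymic tuft cells, against 3.06, 0.19 and 0.158 CPM in SI tuft cells and at most 0.188 CPM in SI epithelium. The Tnfsf8 groups overlapped and no comparison called it.

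The epithelial level of Tnfrsf8 was close in size to what the shared thymic counts give. SI epithelium 1, 2 and 3 held 40, 34 and 56 counts of Tnfrsf8, and the share of the thymic partner library amounts to 46.0, 43.2 and 51.9 counts. After subtraction 0, 0 and 4 counts were left. The log2 fold change over SI epithelium was then 12.56 for thymic tuft cells in place of 7.62, and 7.79 for SI tuft cells in place of 2.91, so the size of the fold against SI epithelium rests on these few counts. Tnfrsf9 gave a like picture, with 16, 2 and 5 counts in SI epithelium against 13.7, 2.31 and 4.65 counts from the partner share. The SI tuft libraries, which held 220, 237 and 218 counts of Tnfrsf8, were not part of the libraries examined for such shares. After subtraction 16 members were higher and 0 lower for thymic over SI tuft cells, 20 and 1 for thymic tuft cells over SI epithelium, and 2 and 4 for SI tuft cells over SI epithelium. The members added were Tnfrsf22 over SI epithelium in thymic tuft cells and Tnfrsf9 in SI tuft cells.

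**Figure D2:**
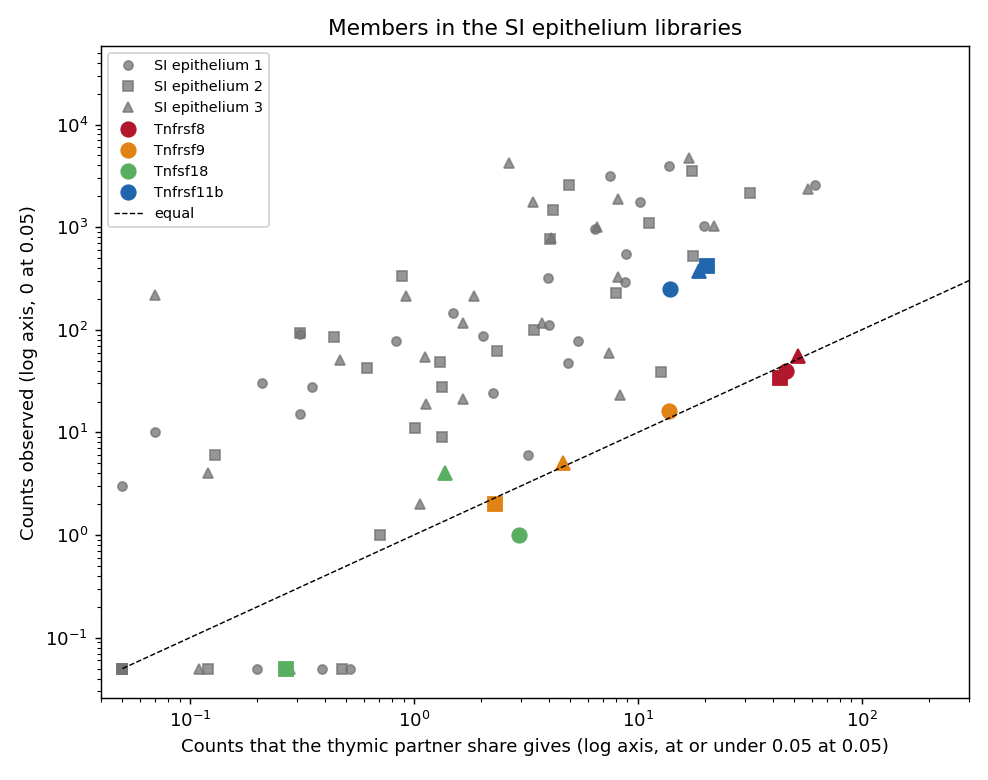
Observed counts of the 30 members in the SI epithelium libraries (y axis, log) against the counts that the share of the thymic partner library gives (x axis, log), 1 point per member and library. Tnfrsf8 (red) and Tnfrsf9 (orange) lie along the line of equal counts, while Tnfrsf11b (blue), with 250, 419 and 373 counts, lies far above it.

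Tnfrsf9, the costimulatory receptor CD137, was likewise higher in thymic tuft cells. It had 15.9, 8.32, 41.1 and 27.9 CPM in thymic tuft libraries, against 1.24, 0.680 and 0.0528 CPM in SI tuft cells and 0.301, 0.0424 and 0.0757 CPM in SI epithelium. The thymic libraries spread about their mean of 23.3 ± 14.4 CPM (SD, n = 4) but all lay above the SI libraries. Fold changes on the log2 scale were 5.14 ± 0.99 over SI tuft cells (edgeR adjusted p = 0.00102) and 7.36 ± 1.12 over SI epithelium (edgeR adjusted p = 0.000176). After subtraction of the partner shares the value over SI epithelium was 10.69 (edgeR adjusted p = 5.61e-05). In the same fit Tnfrsf9 was called higher for SI tuft cells over SI epithelium, at 5.49 (edgeR adjusted p = 0.0105), where the unsubtracted value was 2.22 ± 0.97 (edgeR adjusted p = 0.128). Both subtracted values rest on 2 epithelial counts. Its ligand gene Tnfsf9 had 27.8, 28.8, 26.4 and 39.4 CPM in thymic tuft cells, against 7.92, 2.45 and 2.19 CPM in SI tuft cells and 5.55, 4.88 and 4.98 CPM in SI epithelium. Tnfsf9 was thus the ligand with the highest mean in thymic tuft cells, per kb as well, with no overlap with either SI group. Its log2 fold change was 2.87 ± 0.47 over SI tuft cells (edgeR adjusted p = 0.000297) and 2.58 ± 0.46 over SI epithelium (edgeR adjusted p = 0.000588). SI tuft library 2 set much of the SI tuft level, and without it the log2 fold change of Tnfsf9 over SI tuft cells was 3.71 and that of Tnfrsf9 was 5.98. An antisense gene, Gm11110, overlaps 14.9% of the Tnfsf9 exons, and the libraries do not mark strand.

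The 250 bases before the start of Tnfrsf8 and of Tnfrsf9 are shown because these were the members whose promoter window held the NF-kB consensus motif. Sequences are RefSeq's for GRCm38.p6, read 5′ to 3′ along the gene, with the NF-kB consensus and the AP-1 type motif TGANTCA in capitals. The Tnfrsf8 window is chr4:145315165-145315414 on the minus strand. The Tnfrsf9 window is chr4:150927749-150927998 on the plus strand, before 1 of its RefSeq starts and inside the annotated gene.
Tnfrsf8: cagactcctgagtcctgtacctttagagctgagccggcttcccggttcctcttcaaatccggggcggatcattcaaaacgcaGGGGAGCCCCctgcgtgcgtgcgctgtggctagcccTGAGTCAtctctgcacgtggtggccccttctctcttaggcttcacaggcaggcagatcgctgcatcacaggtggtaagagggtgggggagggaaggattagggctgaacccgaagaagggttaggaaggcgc
Tnfrsf9: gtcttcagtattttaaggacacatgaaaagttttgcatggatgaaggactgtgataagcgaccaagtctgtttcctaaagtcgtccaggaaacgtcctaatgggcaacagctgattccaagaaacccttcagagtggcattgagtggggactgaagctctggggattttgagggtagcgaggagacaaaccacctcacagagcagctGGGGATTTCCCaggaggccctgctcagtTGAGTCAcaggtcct
The NF-kB consensus lies 168 to 159 bases before the Tnfrsf8 start on the opposite strand, and in Tnfrsf9 as overlapping matches from 43 to 33 bases before the start. TGAGTCA lies 132 to 126 bases before the Tnfrsf8 start and 15 to 9 bases before the Tnfrsf9 start. RefSeq windows were found for 23 of the 30 members, with 26 promoters. Searched on both strands, the NF-kB consensus was in 2 of these 26, against 3.9% of 32851 promoters of all genes. TGANTCA was in 5 of 26, against 6.75% of all, and the octamer ATGCAAAT was in 0, against 1.6% of all. A match in these letters is a description of the window and not a measured binding site.

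Both receptors of the RANK system were abundant in thymic tuft cells, while the ligand gene was scarce there and had 0 counts in the SI groups. Tnfrsf11a, which encodes RANK, had 197, 114, 186 and 72.9 CPM in thymic tuft cells, against 25.4, 33.8 and 47.6 CPM in SI tuft cells and 48.5, 46.0 and 35.5 CPM in SI epithelium. All thymic libraries were above all SI libraries, library 4 least. The log2 fold change was 2.00 ± 0.34 over SI tuft cells (edgeR adjusted p = 0.000438) and 1.72 ± 0.34 over SI epithelium (edgeR adjusted p = 0.0012). With thymic library 4 as the only thymic library it was 1.04 over SI tuft cells (edgeR adjusted p = 0.0182) and 0.77 over SI epithelium (edgeR adjusted p = 0.0663), which ended the second call.

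Tnfrsf11b encodes osteoprotegerin, a secreted decoy that binds RANK ligand. It had 64.3, 73.5, 41.8 and 21.9 CPM in thymic tuft cells, against 0, 0.190 and 0.818 CPM in SI tuft cells and 4.70, 8.89 and 5.65 CPM in SI epithelium. The 3 groups did not overlap, with SI tuft cells lowest. On the log2 scale the difference was 7.23 ± 0.94 for thymic over SI tuft cells (edgeR adjusted p = 5.16e-05), 2.98 ± 0.74 for thymic tuft cells over SI epithelium (edgeR adjusted p = 0.00525) and -4.26 ± 0.86 for SI tuft cells over SI epithelium (edgeR adjusted p = 0.00356). The SI tuft value rests on 38 counts in all, 31 of them in library 4, and without that library the last fold change was -6.10. With thymic library 4 alone, the fold over SI epithelium was 1.79 (edgeR adjusted p = 0.152) and no longer called. The ligand gene Tnfsf11, encoding RANK ligand, had 0.361, 0.169, 1.54 and 0.114 CPM in thymic tuft cells, against 0 counts in all SI libraries. It was called higher in thymic tuft cells in both comparisons (edgeR adjusted p = 0.014 over SI tuft cells and 0.0111 over SI epithelium). Against a floor of 3 counts over the group, its pooled level was at least 23.55-fold higher than in SI tuft cells and at least 33.8-fold higher than in SI epithelium, and thymic library 3 held 107 of the 144 counts.

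Fn14, encoded by Tnfrsf12a, and its ligand TWEAK, encoded by Tnfsf12, were both higher in thymic tuft cells but varied differently between libraries. Tnfrsf12a had 74.5, 40.5, 59.3 and 60.3 CPM in thymic tuft cells, against 6.15, 5.90 and 5.81 CPM in SI tuft cells and 19.4, 23.4 and 15.7 CPM in SI epithelium. The 3 groups were fully apart, with SI tuft cells lowest. Its fold change on the log2 scale was 3.30 ± 0.27 for thymic over SI tuft cells (edgeR adjusted p = 1.08e-06), 1.59 ± 0.25 for thymic tuft cells over SI epithelium (edgeR adjusted p = 0.000223) and -1.71 ± 0.26 for SI tuft cells over SI epithelium (edgeR adjusted p = 0.000559). Tnfsf12 had 25.3, 45.6, 14.6 and 1.86 CPM in thymic tuft cells, against 1.85, 1.09 and 0.897 CPM in SI tuft cells and 0.903, 0.828 and 0.908 CPM in SI epithelium. Thymic library 4 lay barely above the highest SI tuft library. The log2 fold change of Tnfsf12 was 4.09 ± 0.86 over SI tuft cells (edgeR adjusted p = 0.00181) and 4.63 ± 0.88 over SI epithelium (edgeR adjusted p = 0.000943). With library 4 as the only thymic library it was 0.55 (edgeR adjusted p = 0.605) and 1.09 (edgeR adjusted p = 0.29), so both calls rest on thymic libraries 1 to 3. Fibroblast and endothelial markers summed to 129 CPM in thymic library 4 and to 45.9, 12.5 and 48.5 CPM in libraries 1 to 3. Most of the sum in library 4 was Dcn, at 87.8 CPM, and Col1a2 and Pecam1 were also highest there. Col1a1, Pdgfra, Cdh5 and Kdr were highest in library 1. The part of these markers in the Tnfsf12 difference was not tested.

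Tnfsf12 lies 465 bases from Tnfsf13, and a read-through gene, Tnfsfm13, overlaps 48.3% of the exons of Tnfsf12 and 60.0% of those of Tnfsf13, so the authors' counting could have left out or split reads there. Tnfsfm13 itself had 0.395 to 1.86 CPM over all libraries. Tnfsf13, which encodes APRIL, a B-cell survival factor, had 5.68, 12.4, 4.46 and 4.77 CPM in thymic tuft cells, against 2.70, 4.90 and 2.53 CPM in SI tuft cells and 2.73, 2.10 and 1.77 CPM in SI epithelium. Its level was called higher over SI epithelium, at a log2 fold change of 1.63 ± 0.56 (edgeR adjusted p = 0.0291), and not over SI tuft cells, at 1.02 ± 0.55 (edgeR adjusted p = 0.142). The epithelial call was lost without thymic library 2 (edgeR adjusted p = 0.0813) and without any 1 of SI epithelium 1, 2 or 3 (edgeR adjusted p = 0.0642 to 0.108). With thymic library 4 alone it was 1.13 (edgeR adjusted p = 0.157), and in all the call was lost in 7 of the 18 alternatives that tested it.

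The receptors for APRIL and the related factor BAFF were higher in thymic tuft cells, whereas the BAFF gene itself was not. Tnfrsf13c, the BAFF receptor gene, had 28.4, 2.54, 6.77 and 27.2 CPM in thymic tuft cells, against 0, 0 and 0.264 CPM in SI tuft cells and 0.452, 0.0212 and 0.348 CPM in SI epithelium. Libraries 1 and 4 were high and libraries 2 and 3 low, yet all were above the SI libraries. In the fit its log2 fold change was 7.50 ± 1.53 over SI tuft cells (edgeR adjusted p = 0.00151), a value that rests on 10 counts in SI tuft library 4, and 5.87 ± 1.37 over SI epithelium (edgeR adjusted p = 0.00374). Tnfrsf13b, encoding TACI, had 3.64, 3.63, 9.72 and 2.54 CPM in thymic tuft cells, against 0.486, 0.517 and 0.581 CPM in SI tuft cells and 0.113, 0.233 and 0.0303 CPM in SI epithelium. Its log2 fold change was 3.21 ± 0.86 over SI tuft cells (edgeR adjusted p = 0.008), and 2.27 with thymic library 4 alone, where it was not called (edgeR adjusted p = 0.107). Over SI epithelium it was 5.28 ± 0.96 (edgeR adjusted p = 0.000682).

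Tnfrsf17, encoding BCMA, was a low gene with 0.394, 1.71, 1.17 and 0.285 CPM in thymic tuft cells, against 0 counts in SI tuft cells and 0, 0 and 0.0606 CPM in SI epithelium. It was called higher over SI tuft cells (edgeR adjusted p = 0.00653), at a pooled level at least 34.5-fold higher, and over SI epithelium (edgeR adjusted p = 0.0205), where 4 counts in 1 library set the reference level. Without SI epithelium 1 or 2 the epithelial call was lost (edgeR adjusted p = 0.0919 and 0.0923), as were both calls with thymic library 4 alone (edgeR adjusted p = 0.0732 over SI tuft cells and 0.22 over SI epithelium). Tnfsf13b, the BAFF gene, had 0.246, 1.13, 0.923 and 0.057 CPM in thymic tuft cells, against 2.38, 0.463 and 4.41 CPM in SI tuft cells and 1.73, 1.97 and 3.33 CPM in SI epithelium. No comparison called it, but with thymic library 4 alone it was lower than in SI tuft cells (edgeR adjusted p = 0.0179) and SI epithelium (edgeR adjusted p = 0.0188). The 6 B-cell and plasma-cell markers summed to 25.5 to 40.3 CPM in thymic tuft cells, 1.74 to 4.06 CPM in SI tuft cells and 0.658 to 2.47 CPM in SI epithelium. Of these 6, 4 were tested and 2 were called higher in thymic tuft cells, with most of the sum in Cd79b, at 14.1 to 33.2 CPM. In thymic libraries Pax5 ranged from 2.60 to 6.40 CPM, Cd79a from 0 to 5.79 CPM and Ms4a1 from 0 to 0.216 CPM. The part of such cells in these 3 receptors was not tested. In bulk samples fewer cells of a type and less RNA per cell cannot be told apart.

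Of the TNF receptors proper, Tnfrsf1b differed and Tnfrsf1a did not pass the test. Tnfrsf1b encodes TNFR2, which lacks a death domain. It had 22.5, 63.5, 26.6 and 58.5 CPM in thymic tuft cells, against 6.71, 3.70 and 6.49 CPM in SI tuft cells and 10.4, 11.2 and 15.1 CPM in SI epithelium. The groups did not overlap. The log2 fold change was 2.93 ± 0.44 over SI tuft cells (edgeR adjusted p = 0.000147) and 1.81 ± 0.41 over SI epithelium (edgeR adjusted p = 0.00309), while SI tuft cells over SI epithelium gave -1.12 ± 0.42 (edgeR adjusted p = 0.0815). That last difference was called lower in 4 of 19 alternatives, among them the fit of only these 2 groups (edgeR adjusted p = 0.0124). Myeloid and dendritic markers summed to 223 to 279 CPM in thymic tuft cells, 15.9 to 50.8 CPM in SI tuft cells and 20.2 to 25.4 CPM in SI epithelium, with 6 of 8 called higher and 1 lower in thymic than in SI tuft cells. Most of the thymic sum was Lyz2, at 168 to 209.5 CPM, followed by Itgam at 11.9 to 64.4 CPM, Cd68 at 15.0 to 29.3 CPM and Csf1r at 2.28 to 27.7 CPM, while Itgax was at most 0.0328 CPM. These markers did not move together over the thymic libraries. Itgam was highest in library 2 and lowest in library 4, while Lyz2 and Cd68 were lowest in library 2 and highest in library 4. Csf1r had 2.28, 12.0, 7.44 and 27.7 CPM in libraries 1 to 4. Like Tnfrsf1b, it was higher in libraries 2 and 4 than in libraries 1 and 3. The part of such cells in the Tnfrsf1b difference was not tested. Tnfrsf1a, which encodes the death-domain receptor TNFR1, averaged 55.1 ± 9.45 CPM in thymic tuft cells (SD, n = 4), 75.6 ± 20.5 CPM in SI tuft cells (n = 3) and 73.8 ± 1.38 CPM in SI epithelium (n = 3). Its log2 fold change was -0.45 ± 0.20 for thymic over SI tuft cells (edgeR adjusted p = 0.082), and without SI tuft library 2 it was -0.62 and called lower (edgeR adjusted p = 0.0403).

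Death and decoy receptors of other ligands divided by gene. Tnfrsf21, which encodes the death-domain receptor DR6, was the member called lower in thymic tuft cells than in SI epithelium. It had 9.11, 17.7, 22.6 and 11.6 CPM in thymic tuft cells, against 58.7, 54.8 and 64.4 CPM in SI epithelium, a log2 fold change of -1.95 ± 0.32 (edgeR adjusted p = 0.000287). SI tuft cells, at 9.86, 6.91 and 12.0 CPM, lay below the same epithelial libraries too, with a log2 fold change of -2.63 ± 0.36 (edgeR adjusted p = 0.000222). The tuft groups overlapped each other, with a log2 fold change of 0.67 ± 0.32 for thymic over SI tuft cells (edgeR adjusted p = 0.099). Every tuft library of either organ was thus below every epithelial library.

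Tnfrsf10b, the mouse death receptor for TRAIL, averaged 17.6 ± 5.72 CPM in thymic tuft cells (SD, n = 4), 11.6 ± 2.84 CPM in SI tuft cells (n = 3) and 20.4 ± 5.66 CPM in SI epithelium (n = 3), and was not called. Tnfsf10, encoding TRAIL, averaged 21.3 ± 9.34 CPM in thymic tuft cells, 27.0 ± 6.17 CPM in SI tuft cells and 31.0 ± 2.24 CPM in SI epithelium, and was not called either. Tnfsf10 was called lower with thymic library 4 alone, at a log2 fold change of -1.19 over SI tuft cells (edgeR adjusted p = 0.00927) and of -1.38 over SI epithelium (edgeR adjusted p = 0.00455). Tnfrsf23, encoding a mouse decoy receptor for TRAIL, had 12.8, 8.47, 12.0 and 12.5 CPM in thymic tuft cells, against 1.12, 2.04 and 2.75 CPM in SI tuft cells and 2.11, 1.32 and 1.76 CPM in SI epithelium. All thymic libraries were above all SI libraries, with a log2 fold change of 2.54 ± 0.49 over SI tuft cells (edgeR adjusted p = 0.00097) and 2.73 ± 0.49 over SI epithelium (edgeR adjusted p = 0.00062). Tnfrsf22, another decoy, lies 16.1 kb from it on chromosome 7, and Tnfrsf26 lies 6.08 kb beyond Tnfrsf22. As related copies these genes may share reads, so counts within this cluster are uncertain. Tnfrsf22 averaged 1.498 CPM in thymic tuft cells and at most 0.289 CPM in either SI group. It missed the threshold over SI epithelium (edgeR adjusted p = 0.0504). Tnfrsf26 averaged 0.602 CPM in thymic tuft cells, 0.606 CPM in SI tuft cells and 0.0188 CPM in SI epithelium. Its call over SI epithelium (edgeR adjusted p = 0.0457) rests on 3 epithelial counts and was lost in 10 of the 18 alternatives that tested it.

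OX40 ligand and GITR ligand, known to costimulate T cells, were present in thymic tuft cells and had 0 counts in SI tuft cells. The OX40 ligand gene Tnfsf4 had 5.66, 4.80, 1.04 and 4.31 CPM in thymic tuft cells, against 0 counts in the SI tuft libraries and 0.527, 0.191 and 0.318 CPM in SI epithelium. It was called higher in thymic than in SI tuft cells (edgeR adjusted p = 0.0002), at a pooled level at least 147-fold higher against a floor of 3 counts over the group. It was also higher than in SI epithelium, with a log2 fold change of 3.51 ± 0.93 (edgeR adjusted p = 0.01), which without SI epithelium 2 was 3.21 (edgeR adjusted p = 0.054). In SI tuft cells it was called lower than in SI epithelium (edgeR adjusted p = 0.00566), at least 13.46-fold, from 58 epithelial counts. The GITR ligand gene Tnfsf18 had 4.71, 0.959, 8.84 and 1.16 CPM in thymic tuft cells, against 0 counts in SI tuft cells and 5 counts over SI epithelium. It was called higher over SI tuft cells (edgeR adjusted p = 0.0011), at least 165.5-fold in pooled level, and over SI epithelium (edgeR adjusted p = 0.00281), with libraries 1 and 3 high.

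Tnfsf15, encoding the DR3 ligand TL1A, had 6.35, 4.70, 16.2 and 4.54 CPM in thymic tuft cells, against 1.36, 0.571 and 0.317 CPM in SI tuft cells and 1.45, 1.04 and 3.22 CPM in SI epithelium. The thymic libraries were above all SI libraries, with a log2 fold change of 3.40 ± 0.80 over SI tuft cells (edgeR adjusted p = 0.00379) and 2.06 ± 0.74 over SI epithelium (edgeR adjusted p = 0.0355). Without thymic library 3 the second fold change was 1.47 and not called (edgeR adjusted p = 0.119). Without SI epithelium 1 or 2 it was not called either (edgeR adjusted p = 0.123 and 0.132), nor with thymic library 4 alone (edgeR adjusted p = 0.279). Tnfsf14, encoding LIGHT, had 0, 0, 0.606 and 2.68 CPM in thymic tuft cells and 0 counts in all SI libraries, and the filter left it untested.

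Of the receptors that pair with these ligands on lymphocytes, Tnfrsf25 was called in 1 comparison, and Tnfrsf4, Tnfrsf18 and Tnfrsf14 were called in none. Tnfrsf4, encoding OX40, had 3.82, 2.24, 6.12 and 1.56 CPM in thymic tuft cells, against 0.462, 1.25 and 1.37 CPM in SI tuft cells and 1.64, 0.891 and 0.817 CPM in SI epithelium. It did not pass the test over SI tuft cells (edgeR adjusted p = 0.0741) or SI epithelium (edgeR adjusted p = 0.092). Tnfrsf18, encoding GITR, had 3.15, 1.60, 2.50 and 0.702 CPM in thymic tuft cells, against 5.88, 6.18 and 3.22 CPM in SI tuft cells and 1.45, 1.82 and 3.22 CPM in SI epithelium. It was the member whose thymic libraries all lay below the SI tuft libraries, with a log2 fold change of -1.35 ± 0.64 (edgeR adjusted p = 0.0975). With thymic library 4 alone it was -2.85 and called lower (edgeR adjusted p = 0.018). An antisense gene, Gm16008, overlaps 27.2% of the Tnfrsf18 exons, so its counts are uncertain.

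Tnfrsf25, encoding DR3, had 1.61, 4.80, 0.620 and 7.56 CPM in thymic tuft cells, against 1.43, 1.52 and 1.64 CPM in SI tuft cells and 0.565, 0.594 and 0.772 CPM in SI epithelium. Its call over SI epithelium (edgeR adjusted p = 0.0309) came with overlapping libraries and was lost in 7 of the 18 alternatives that tested it. Tnfrsf14, encoding HVEM, averaged 10.99 ± 5.33 CPM in thymic tuft cells (SD, n = 4), 9.26 ± 5.04 CPM in SI tuft cells (n = 3) and 8.30 ± 3.07 CPM in SI epithelium (n = 3), and was not called. The 12 T-cell markers summed to 9.95 to 31.5 CPM in thymic tuft cells, 24.8 to 35.1 CPM in SI tuft cells and 2.80 to 6.39 CPM in SI epithelium. Of 10 tested, 1 was higher and 1 lower in thymic than in SI tuft cells. Against SI epithelium, 4 were higher and 0 lower in thymic tuft cells. Ptcra was at 0 in all thymic libraries. Over these, Cd3d ranged from 0 to 1.30 CPM, Cd3e from 0.378 to 4.89 CPM, Cd4 from 1.81 to 8.99 CPM, Cd8a from 0.260 to 11.4 CPM, Lck from 0.152 to 10.0 CPM and Rag1 from 0.282 to 8.26 CPM. Their part in the levels of these genes was not tested.

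**Figure D3:**
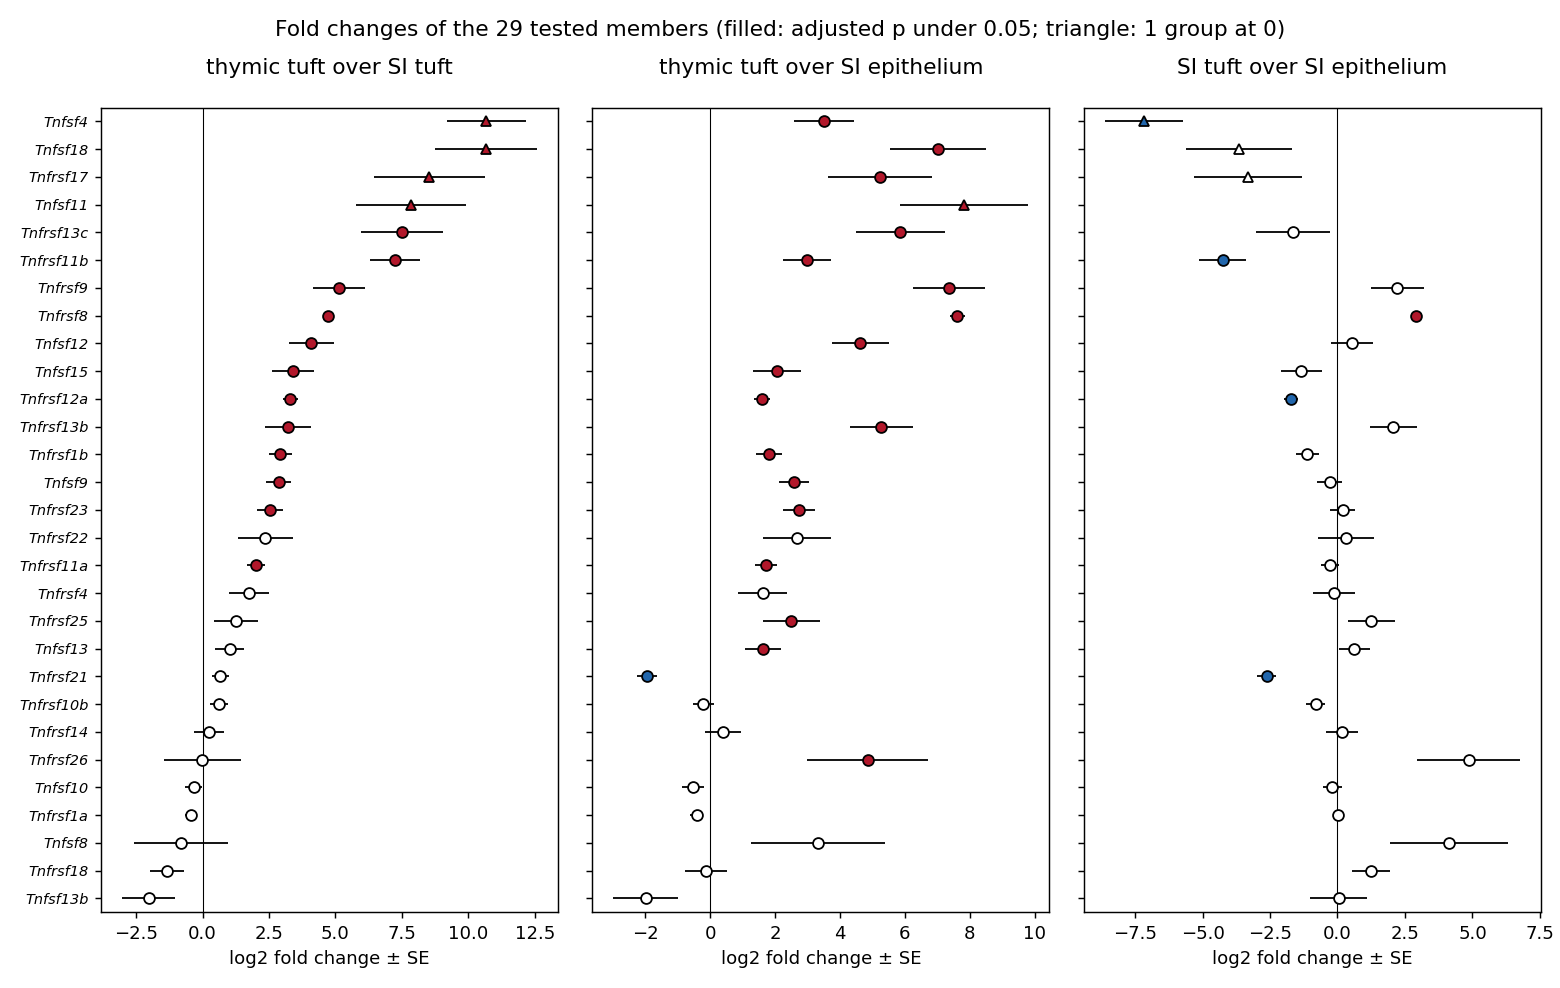
Log2 fold changes with SE for the 29 tested members in the 3 comparisons, in the order of thymic over SI tuft cells. Filled symbols were called (red higher, blue lower), triangles have 1 group at 0 counts, so their fitted fold depends on the prior count, and Tnfsf11 is not drawn for the SI groups, where both were at 0. The x axes differ between panels.

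Within a comparison, calls and ranges can be set side by side. Between thymic and SI tuft cells 18 tested members lay fully higher and 1 fully lower, where 26.3% of all tested genes lay higher and 24.9% lower without overlap, 51.3% in all. Between thymic tuft cells and SI epithelium 18 lay higher and 3 lower, against 28.0% and 27.4% of all genes, 55.4% in all. Between SI tuft cells and SI epithelium 4 lay higher and 6 lower, against 22.8% and 28.4% of all genes, 51.1% in all. By kind, 6 of 10 tested ligands and 10 of 19 receptors were called higher in thymic than in SI tuft cells, and 7 of 10 and 12 of 19 higher than in SI epithelium.

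Per kb of exon, the order of levels differed between groups. In thymic tuft cells Tnfrsf8 led at 44.2 ± 5.14 CPM per kb (SD, n = 4) and did not overlap the next, Tnfrsf12a, at 30.4 ± 7.21 CPM per kb. After it Tnfrsf11a at 23.8, Tnfsf9 at 23.7 and Tnfrsf1a at 21.3 CPM per kb overlapped their neighbours in the order. In SI tuft cells Tnfrsf1a led at 29.2 ± 7.90 CPM per kb (n = 3), clear of the next, Tnfrsf14, at 6.44 ± 3.50 CPM per kb. In SI epithelium Tnfrsf1a led at 28.5 ± 0.53 CPM per kb (n = 3), followed by Tnfrsf21 at 14.4 ± 1.17 and Tnfrsf12a at 10.1 ± 2.01 CPM per kb, each apart from the next. Summed over the 19 receptors, levels were 614 ± 67.6 CPM in thymic tuft cells, 171 ± 36.6 CPM in SI tuft cells and 250 ± 4.27 CPM in SI epithelium. The 11 ligands summed to 99.1 ± 18.0 CPM in thymic tuft cells, 40.2 ± 10.3 CPM in SI tuft cells and 43.9 ± 2.00 CPM in SI epithelium. Both sums were higher in every thymic library than in any SI library. At least 1 CPM in every library was reached by 6 of 11 ligands and 14 of 19 receptors in thymic tuft cells, by 3 and 11 in SI tuft cells and by 5 and 10 in SI epithelium.

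Levels of known pairs were set beside each other as means over libraries. In thymic tuft cells ligand and receptor means both exceeded 8 CPM per kb for Tnfsf9 with Tnfrsf9 and for Tnfsf12 with Tnfrsf12a. The first pair stood at 23.7 ± 4.61 and 8.56 ± 5.28 CPM per kb (SD, n = 4). The second stood at 14.4 ± 12.2 and 30.4 ± 7.21 CPM per kb. Single thymic libraries ranged from 3.055 to 15.1 CPM per kb for Tnfrsf9 and from 1.23 to 30.1 CPM per kb for Tnfsf12. Not every thymic library thus exceeded 8 CPM per kb for both genes of a pair. In SI tuft cells the same pairs stood at 3.25 and 0.241 CPM per kb and at 0.843 and 3.08 CPM per kb. In SI epithelium they stood at 3.98 and 0.0513 CPM per kb and at 0.581 and 10.1 CPM per kb. Other receptors were abundant where their ligand was scarce, such as Tnfrsf8 beside Tnfsf8 at 0.171 CPM per kb and Tnfrsf11a beside Tnfsf11 at 0.245 CPM per kb in thymic tuft cells. These are transcript levels in sorted cells, and neither contact nor signalling was measured.

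**Figure D4:**
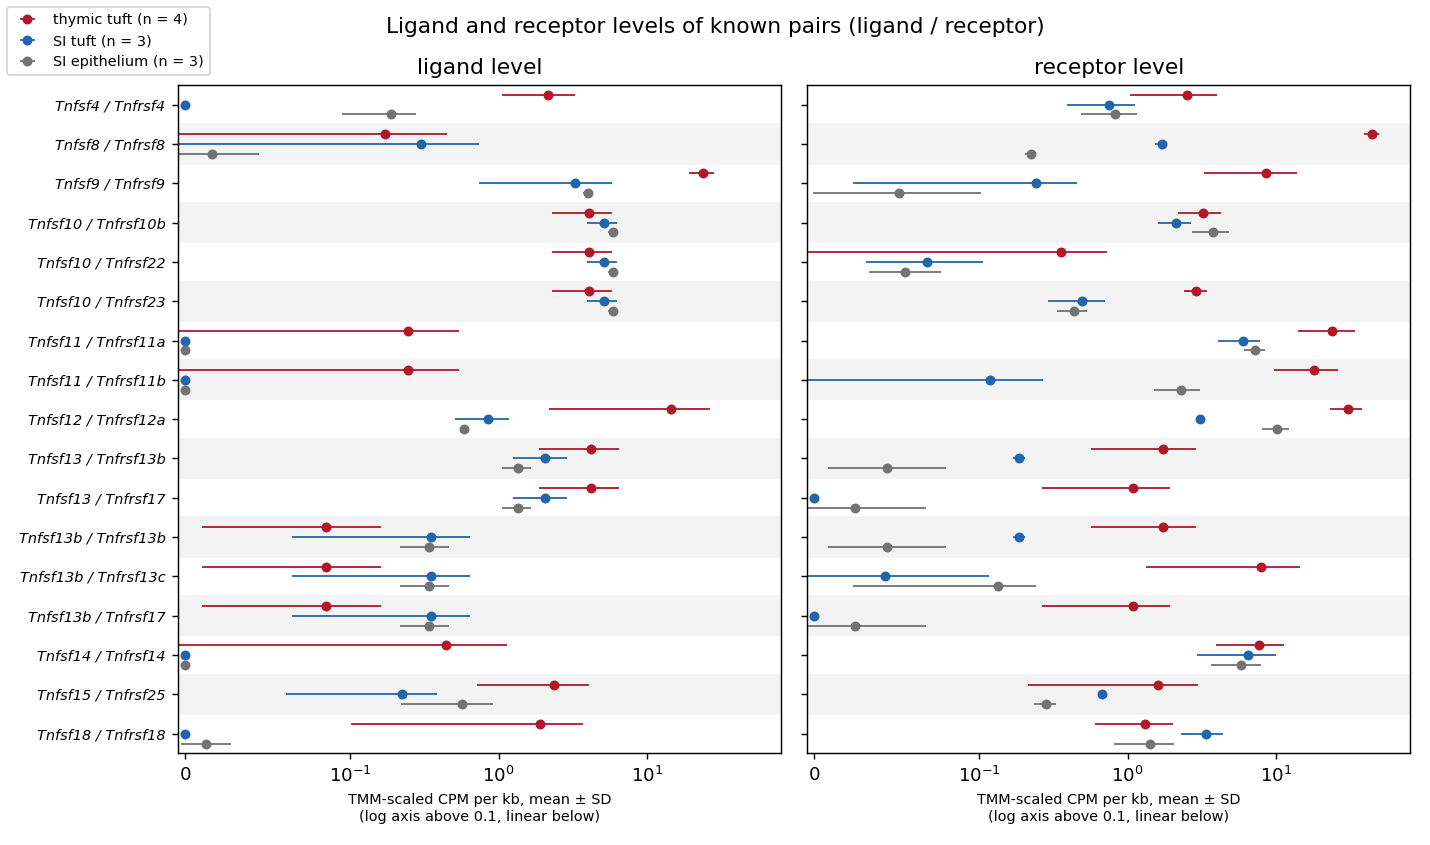
Mean CPM per kb (± SD over libraries, log axis above 0.1 and linear below) of ligand (left) and receptor (right) for known ligand and receptor pairs in the 3 groups. In thymic tuft cells Tnfrsf8 and Tnfrsf11a lie far above their ligands, while Tnfsf9 and Tnfsf12 lie above their SI levels together with their receptors.

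Several members are neighbours in the genome. Tnfsf4 and Tnfsf18 lie 76.2 kb apart on chromosome 1, and both were called higher in thymic tuft cells in both comparisons. Tnfrsf1b and Tnfrsf8 lie 20.3 kb apart on chromosome 4, and both were likewise higher in both comparisons. Of other neighbours within 150 kb, Tnfsf15 was called and Tnfsf8 was not, and neither Tnfrsf4 nor Tnfrsf18, 9.55 kb apart, was called in any comparison. Tnfsf9 was called, and Tnfsf14, 81.7 kb from it on chromosome 17, was not tested.

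Other genes of the pathway, taken from lists that hold no Tnfsf or Tnfrsf symbol, were mostly higher in thymic tuft cells, with Tradd, Fadd and Casp8, Ltbr, Ltb, Fasl and Chuk lower than in SI tuft cells. Fasl was near the floor, at 0.0486 to 0.370 CPM in SI tuft cells and at most 0.0164 CPM in thymic tuft cells. Of 41 tested genes of the 43 in 4 lists, 28 were higher and 7 lower in thymic than in SI tuft cells, with a median log2 fold change of 1.41, where 28.5% of all genes were higher and 23.1% lower. Against SI epithelium 29 were higher and 5 lower, with a median of 1.52, where 28.6% of all genes were higher and 22.3% lower. The median over all tested genes was 0.12 and 0.154. In SI tuft cells over SI epithelium 9 were higher and 8 lower, with 10.9% and 11.4% of all genes, and after subtraction of the partner shares the receptors with other names had 0 higher and 1 lower, where 1 and 3 had been called. The counts per list below stand against the same shares of all genes, and ranges are over the libraries of a group.

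Among the 8 receptors with other names, 7 were higher and 1 lower in thymic than in SI tuft cells (median log2 fold change 5.17, also with 2 genes at their bound), and 5 and 1 against SI epithelium. Cd40, a receptor of antigen-presenting and medullary epithelial cells, had 26.6 to 44.8 CPM in thymic tuft cells, against 0 counts in SI tuft cells and 0.0757 to 0.320 CPM in SI epithelium (edgeR adjusted p = 8.45e-07 over SI tuft cells, at least 1349-fold in pooled level). The low epithelial counts of Cd40 were not set against the thymic partner shares, so expression there is not read from them. Ngfr, the neurotrophin receptor, had 26.9 to 75.4 CPM in thymic tuft cells, against 1.17 to 3.70 CPM in SI tuft cells and 0.106 to 0.954 CPM in SI epithelium (edgeR adjusted p = 0.000249 over SI tuft cells). Ltbr, the lymphotoxin beta receptor, went the other way, with 31.2 to 53.1 CPM in thymic tuft cells, against 81.2 to 107 CPM in SI tuft cells and 82.5 to 123 CPM in SI epithelium, a log2 fold change of -1.24 ± 0.22 over SI tuft cells (edgeR adjusted p = 0.000521). Medullary thymic epithelium markers such as Aire and Krt5 summed to 2363 to 2821 CPM in thymic tuft cells, 989 to 1159 CPM in SI tuft cells, nearly all of it Spib, and 26.0 to 35.2 CPM in SI epithelium. Of the 8 tested, 7 were higher in thymic than in SI tuft cells, and their part in the receptor levels was not tested.

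Of the ligands with other names 5 were tested, and 2 were higher and 2 lower in thymic than in SI tuft cells (median log2 fold change 1.15), and 4 and 1 against SI epithelium. With thymic library 4 as the only thymic library, 1 was lower than in SI tuft cells and 0 than in SI epithelium. Lta, encoding lymphotoxin alpha, had 3.36 to 11.01 CPM in thymic tuft cells, against at most 0.190 CPM in SI tuft cells (edgeR adjusted p = 0.0047), and Cd70 had 3.18 to 5.63 CPM against 0 counts (edgeR adjusted p = 0.000169). Ltb, encoding the lymphotoxin beta chain, was lower, with 0.677 to 6.22 CPM in thymic tuft cells, against 20.4 to 39.6 CPM in SI tuft cells and 0.0849 to 0.878 CPM in SI epithelium (edgeR adjusted p = 0.0086 over SI tuft cells). Ltb and Tnf were the ligands of this list called higher for SI tuft cells over SI epithelium, with log2 fold changes of 6.11 ± 1.08 (edgeR adjusted p = 0.00144) and 2.55 ± 0.62 (edgeR adjusted p = 0.0111).

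Of 14 receptor adaptors and proximal factors, 8 were higher and 3 lower in thymic than in SI tuft cells (median log2 fold change 1.05), and 9 and 3 against SI epithelium. Traf1, an adaptor of TRAF-binding receptors, had 44.7 to 85.5 CPM in thymic tuft cells, against 2.23 to 4.01 CPM in SI tuft cells and 0.333 to 0.960 CPM in SI epithelium, a log2 fold change of 4.39 ± 0.42 over SI tuft cells (edgeR adjusted p = 3.79e-06). The 3 lower genes were Tradd, Fadd and Casp8, which link death-domain receptors to caspases. Casp8 had 30.5 to 55.5 CPM in thymic tuft cells, against 143 to 208 CPM in SI tuft cells and 119 to 131 CPM in SI epithelium, a log2 fold change of -2.07 ± 0.22 over SI tuft cells (edgeR adjusted p = 9.71e-06). Tradd and Fadd had log2 fold changes of -2.37 ± 0.40 (edgeR adjusted p = 0.000391) and -1.08 ± 0.31 (edgeR adjusted p = 0.0109) in the same comparison.

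Of 14 NF-kB factors, 11 were higher and 1, the kinase gene Chuk, was lower in thymic than in SI tuft cells (median log2 fold change 1.34), and 11 were higher and 0 lower against SI epithelium. The subunit gene Rel had 88.6 to 114 CPM in thymic tuft cells, against 4.52 to 8.37 CPM in SI tuft cells and 7.45 to 9.92 CPM in SI epithelium, a log2 fold change of 4.08 ± 0.27 over SI tuft cells (edgeR adjusted p = 1.94e-07). Nfkb2, encoding the precursor of the non-canonical subunit, had 120 to 167 CPM in thymic tuft cells, against 18.6 to 26.6 CPM in SI tuft cells and 42.8 to 51.3 CPM in SI epithelium, a log2 fold change of 2.65 ± 0.19 (edgeR adjusted p = 3.68e-07). Nfkbie, an inhibitor and known NF-kB target, had 50.6 to 172 CPM in thymic tuft cells, against 0.299 to 0.633 CPM in SI tuft cells and 2.50 to 3.19 CPM in SI epithelium, a log2 fold change of 7.52 ± 0.56 (edgeR adjusted p = 4.6e-07). Dissociation differed between the organs, and the 2 cannot be told apart in these values.

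**Figure D5:**
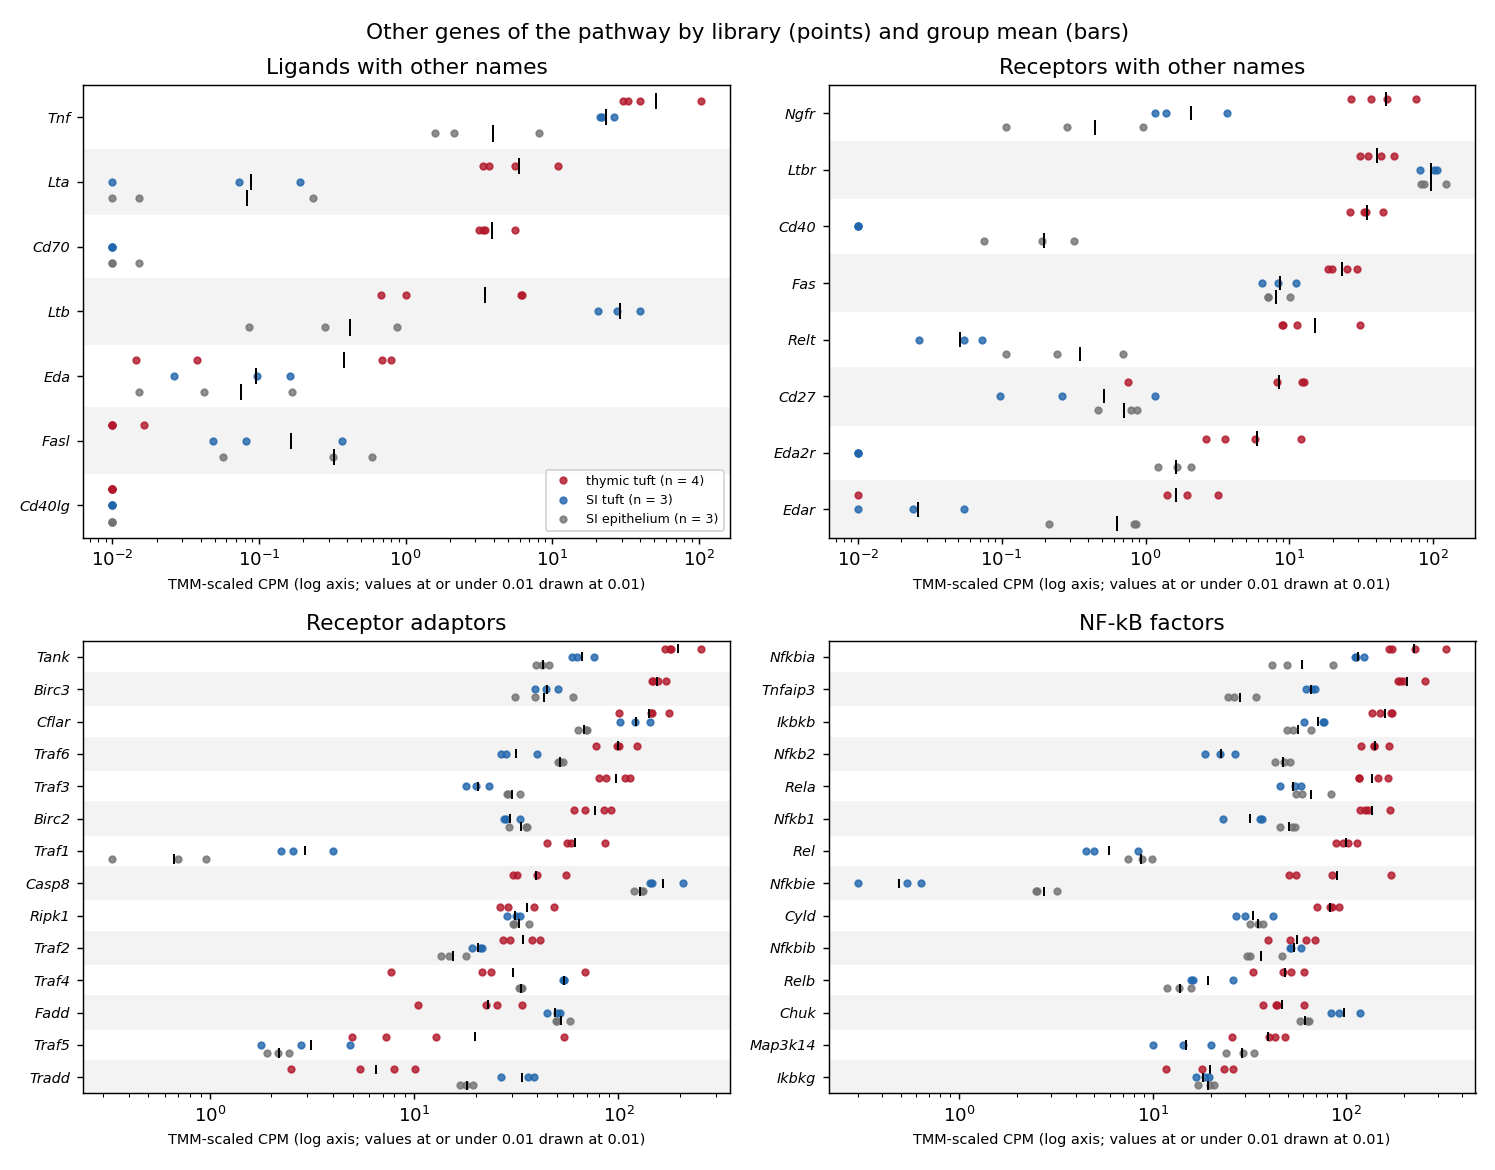
TMM-scaled CPM of the 43 other pathway genes in each library (points, log axis) with group means (bars), by list. Rel, Nfkbie, Traf1 and Cd40 show thymic libraries far to the right of all SI libraries, while Casp8, Tradd, Fadd, Ltbr and Chuk show them to the left of all SI tuft libraries.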

How the data were processed

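The authors deposited gene counts per library; per the submitters' processing notes, STAR and GRCm38 were used and DESeq2 was named, with versions not given in the sources used here. Per the labels' protocols, the NuGEN Ovation V2 kit made cDNA and Nextera XT the libraries, which mark no strand. The counts were used as deposited. Symbols, coordinates and exon lengths came from GENCODE M21, which held 42548 of the 43432 identifiers. Genes were kept by filterByExpr (minimum count 10, total 15), and 1 quasi-likelihood model was fitted over the 10 libraries with a mean per group and TMM factors of 0.661 to 1.43 (edgeR 4.0.16, R 4.3.3). DESeq2 1.42.0 was an alternative. Precision differs by group, since 1350 to 1900 cells stand behind a thymic library.

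Thymic shares in SI epithelium were fitted by reweighted least squares without negative shares, and the reverse shares are medians of count ratios. The share fit was run on simulated data in which the fitted genes had no epithelial counts of their own, so that case was not tested. The edgeR fit was also run on simulated data, and neither outcome is given here. The members, gene lists, marker lists and tests were chosen with earlier results of these data known. Members reaching 5 CPM in a group, or called and reaching 1 CPM, were to be given by library, and lower ones were added where a pair was described. Tnfrsf1a, Tnfrsf10b, Tnfrsf14 and Tnfsf10 reached 5 CPM, were called in no comparison and are given as mean and SD instead. The pathway genes named were picked among those called. Same-numbered libraries had correlations of -0.0445 to 0.0747 in their deviations from the group means, so the replicate numbers were not taken to pair mice.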

Additional observations from a re-analysis of the deposited data

Results flagged for a closer look

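Among the 4 thymic tuft libraries, 1 library lay far from the other 3 for 12 of 72 genes examined, 5 of them among the 30 members. With normally distributed values chance would flag about 1 in 20 groups. CPM values need not be so distributed, least of all at low counts, and the rate over all genes was not computed. The number flagged is therefore not read as an excess over chance. The values are TMM-scaled CPM, and no cause was tested.

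Thymic library 3 was high for Tnfrsf13b at 9.72 CPM, where the next was 3.64 CPM, and for Tnfsf15 at 16.2 CPM, where the next was 6.35 CPM. Tnfrsf22 was high in library 1 at 3.84 CPM, against 0.470 to 0.923 CPM in the others. Tnfsf13 was high in library 2 at 12.4 CPM, against 4.46 to 5.68 CPM. Tnfsf8 was high in library 4 at 2.22 CPM, against 0 to 0.216 CPM.

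Of the other pathway genes, Tnf at 103 CPM and Cd70 at 5.63 CPM were high in library 2, Relt at 30.9 CPM and Traf5 at 54.2 CPM in library 3, and Tank at 252 CPM and Tnfaip3 at 257 CPM in library 4. Fasl, at 0.016 CPM in library 1, was at 0 in the other 3.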

How the results depend on the processing

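No call among the members changed direction in any of 19 alternatives. Of the calls, 5 of 5 for SI tuft cells over SI epithelium, 13 of 16 for thymic over SI tuft cells and 11 of 20 for thymic tuft cells over SI epithelium held in every alternative that tested the gene. For SI tuft cells over SI epithelium the number called higher was 4 with the DESeq2 Wald test, and 2 each with only the 2 groups fitted, with partner shares subtracted and with thymic library 4 as the only thymic library, and it was 1 to 2 when single libraries were left out (2 without thymic library 3 or SI tuft library 4). For thymic over SI tuft cells 10 of 14 tested members were higher with a filter of 10 CPM in 3 libraries, and 15 to 17 when single libraries were left out. In that comparison the number lower was 3 with thymic library 4 alone (Tnfrsf18, Tnfsf10 and Tnfsf13b), and 0 to 1 when single libraries were left out, with Tnfrsf1a lower without SI tuft library 2. For thymic tuft cells over SI epithelium 9 of 14 tested members were higher with the 10 CPM filter, 13 to 19 when single libraries were left out, with 13 without SI epithelium 2, and 3 were lower with thymic library 4 alone. Apart from the 10 CPM filter, which tests fewer members, the cause of these moves was not tested. DESeq2 size factors moved the median log2 fold change of all genes to 0.362 and 0.383 for the thymic comparisons, from 0.12 and 0.154, so thymic changes are relative to that choice.

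With the replicate number as a block, 16 members were higher and 0 lower in thymic than in SI tuft cells, 16 higher and 1 lower in thymic tuft cells than in SI epithelium, and 1 higher and 5 lower for SI tuft cells over SI epithelium. The numbers were not taken to pair mice. In the library with the smallest scaled depth 3 counts stand for 0.0816 CPM, and differences below that level were not detectable.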
